A study of Mus musculus with 4 samples.

Results

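Complex I, the NADH:ubiquinone oxidoreductase of the mitochondrial inner membrane, was followed through the genes that build it. The members were the protein-coding genes of the count table whose mouse symbol begins with Nduf. They numbered 46 of 55487 gene IDs and comprised 38 genes of the subunit series and 8 assembly factors (symbols beginning with Ndufaf). RNA was sequenced from group 2 innate lymphoid cells (ILC2s), lymphocytes without antigen receptors that release type 2 cytokines, sorted from the mouse colon and kept in culture with the cytokines IL-33, IL-25, IL-7 and IL-2. The FK866 group (n = 2 libraries) also received FK866 for 16 h. FK866 is a small-molecule inhibitor of NAMPT, the enzyme that salvages nicotinamide into NAD+. The Control group (n = 2 libraries) received the same cytokines, and its vehicle, like the strain, age and number of animals, is not given in the sources used here. The labels do not tell whether the 2 libraries of a group stem from different cultures or mice. The spread behind each p-value is therefore that of these libraries alone and can be technical.

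Complex I takes electrons from NADH, passes them through a flavin and a chain of iron-sulfur clusters to ubiquinone, and pumps protons across the membrane, so that it also returns NAD+ to the matrix. Its matrix arm holds the NADH-binding N module and the ubiquinone-binding Q module. Its membrane arm holds the mitochondrially encoded proton pumps together with many small nuclear-encoded subunits. The core subunits carry out catalysis and have bacterial counterparts, the accessory (supernumerary) subunits surround and stabilise them, and the assembly factors help to join the modules but leave the finished complex. These roles are known mostly from human, bovine and mouse cells. The subunit series also holds Ndufa4 and Ndufa4l2, whose products are now placed in complex IV (cytochrome c oxidase).

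Library totals were 27617750 and 32241615 counts in the FK866 libraries and 37841233 and 32540325 counts in the Control libraries. FK866 replicate 2 stood apart, with 22461 gene IDs at 10 or more counts, against 17152 in FK866 replicate 1 and 17563 and 18667 in the Control libraries. The ILC2 genes Gata3 and Il1rl1 averaged 770.2 and 235 CPM (counts scaled to library size) in FK866 libraries and 1014 and 232 CPM in Control libraries, neither of them called, so that both were present in each group. Of the 12 ILC2 genes listed, all tested, 3 were called lower, namely Il13 (-1.49), Nmur1 (-1.18) and Id2 (-0.89), and 2 higher, namely Rora (1.70) and Hlf (1.91), as log2 fold changes. The list summed to 5157 and 4302 CPM in the FK866 libraries, against 5105 and 5085 CPM in the Control libraries. Of 8 T cell genes 7 passed the count filter and 1, Cd28, was called higher, and the summed list stood at 158 and 177 CPM in the FK866 libraries, against 102 and 101 CPM in the Control libraries. Most of that sum was Cd28, which averaged 135 CPM in FK866 libraries and 59.2 CPM in Control libraries. Cd3g averaged 14.7 CPM in FK866 libraries and 14.9 CPM in Control libraries, and Cd3e 2.13 and 1.69 CPM. Lck went the other way, with averages of 11.8 CPM in FK866 libraries and 22.2 CPM in Control libraries. Of 7 genes of other innate lymphoid cells, 6 passed the filter, 3 of them with a negative log2 fold change, and 1, Il23r, was called higher. The list summed to 229 and 92.0 CPM in the FK866 libraries, against 276 and 162 CPM in the Control libraries. Il22 made up most of that sum, with averages of 144 CPM in FK866 libraries and 206 CPM in Control libraries. It overlapped between the groups and was not called (log2 fold change -0.51, edgeR adjusted p = 0.496). Il23r averaged 4.85 CPM in FK866 libraries and 1.17 CPM in Control libraries. The summed myeloid and mast cell list stood at 5.38 and 5.59 CPM in the FK866 libraries, against 1.40 and 3.71 CPM in the Control libraries. The B cell list stood at 19.3 and 25.8 CPM in the FK866 libraries, against 31.6 and 34.9 CPM in the Control libraries. The epithelial and stromal list stood at 253 and 229 CPM in the FK866 libraries, against 223 and 198 CPM in the Control libraries, with Krt8 at 0 counts in all 4 libraries. Most of that sum was Pecam1, which averaged 206 CPM in FK866 libraries and 161 CPM in Control libraries. Epcam went the other way, with averages of 31.0 CPM in FK866 libraries and 47.7 CPM in Control libraries. In these 3 lists edgeR called 0 genes, DESeq2 called 1 B cell gene lower, and at an unadjusted p under 0.05 each list had 1 or 2 genes. The part of these markers in the results below was not tested.

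Transcripts of complex I genes were mostly lower with FK866, and no member was called higher. Of the 45 members that passed the count filter, 13 were called lower and 0 higher (edgeR quasi-likelihood F test, with a Benjamini-Hochberg adjusted p below 0.05 over all 19194 genes tested). Among all genes tested, 13.2% were called, 7.89% lower and 5.31% higher. At an unadjusted p under 0.05, 26 members were lower and 1, Ndufaf5, was higher, against 15.9% and 12.1% of all genes tested. DESeq2 called 16 members lower and 0 higher, against 15.2% and 11.9% of the 12496 genes to which it gave an adjusted p. The log2 fold change was negative in 42 of the 45 members, and in 40 of them both FK866 libraries lay below both Control libraries, a pattern that 29.3% of all genes tested also had. Ndufb4 was the one member that fell by 2-fold or more. Because these are bulk libraries scaled to their own totals, less RNA per cell and fewer expressing cells cannot be told apart.

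Summed over the 38 genes of the subunit series, transcripts stood at 4074 and 3957 CPM in the FK866 libraries, against 4975 and 5253 CPM in the Control libraries. The sum over the 8 assembly factors was 239 and 233 CPM in the FK866 libraries, against 306 and 334 CPM in the Control libraries. Both sums were lower in each FK866 library than in either Control library. The median log2 fold change was -0.38 over the 37 subunits tested and -0.60 over the 8 assembly factors, beside 0.025 over all genes tested. Of the subunits 10 of 37 were called lower, and of the assembly factors 3 of 8, against 7.89% of all genes tested. The difference between these shares was not tested.

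**Figure D1:**
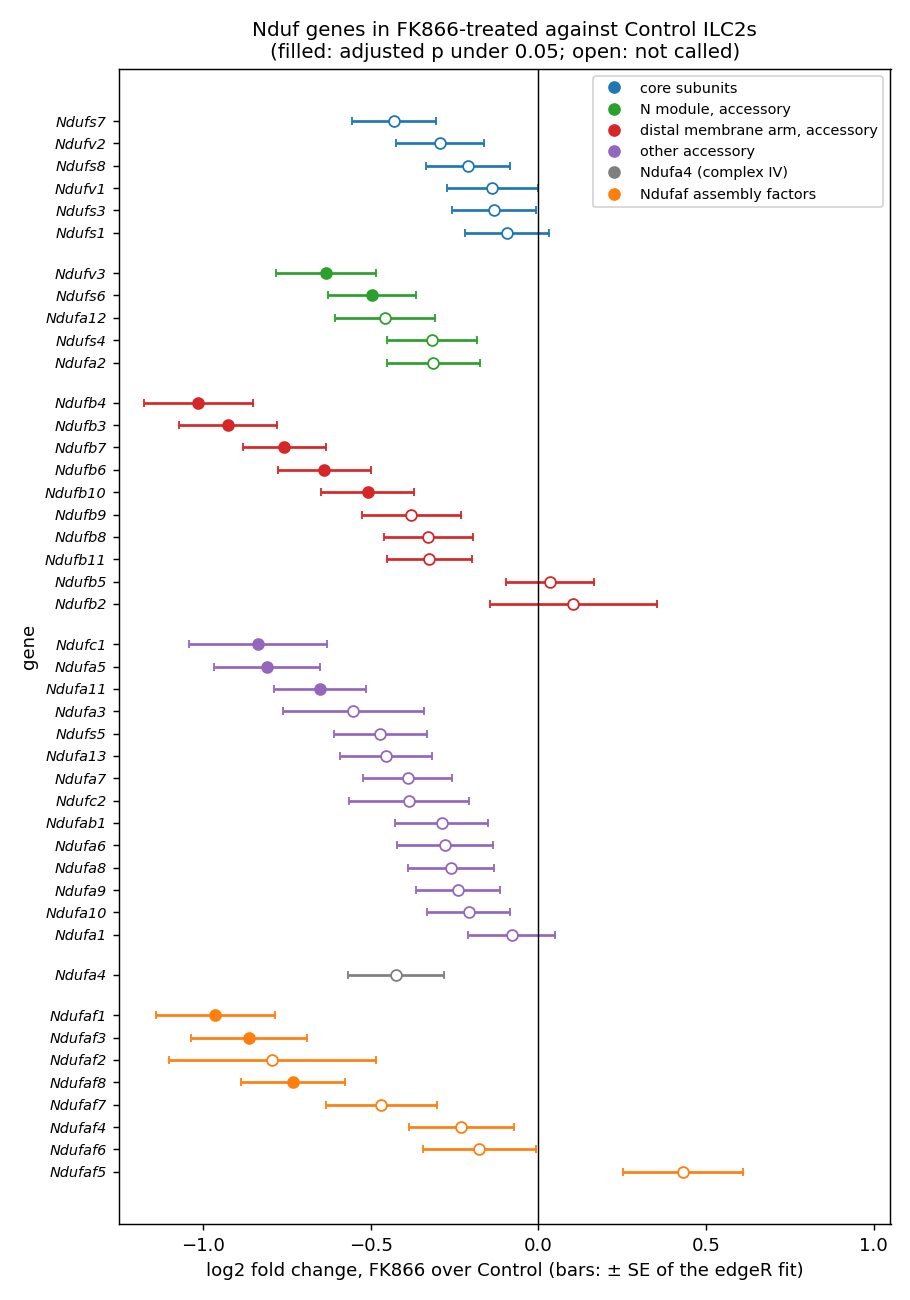
Log2 fold change (FK866 over Control, x axis) of 44 of the 45 tested Nduf genes, with the SE of the edgeR fit as bars, grouped by role, and filled where the adjusted p was under 0.05. The 13 filled points all lie left of 0, none of them among the 6 core subunits drawn, and Ndufaf5, which was not called, lies farthest to the right at 0.43.

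The numbers called depended on which library was left out. Without FK866 replicate 2, 4 subunits and 1 assembly factor were called lower, where 3.96% of all genes tested were. Without FK866 replicate 1, 9 subunits and 3 assembly factors were called (7.81% of all genes). Without Control replicate 1, 25 subunits and 6 assembly factors were called (10.5% of all genes), and without Control replicate 2, 11 and 3 (9% of all genes). In such a fit the lone library of a group is assumed to vary like the other group. FK866 replicate 2 was above FK866 replicate 1 in 14 of 37 subunits, with a median log2 difference of -0.013, and Control replicate 2 was above Control replicate 1 in 27, with a median of 0.083.

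None of the 7 nuclear-encoded core subunits was called by edgeR with TMM scaling, the standard count filter, treatment as the only term and all 4 libraries, with 1, Ndufs7, at an unadjusted p under 0.05. Their log2 fold changes ran from -0.43 to -0.094. Ndufs7, which carries the last iron-sulfur cluster before ubiquinone, had 165 and 157 CPM in the FK866 libraries, against 222 and 211 CPM in the Control libraries. Its groups did not overlap, but it did not pass the test (log2 fold change -0.43 ± 0.125 (SE), edgeR adjusted p = 0.0559). It was called lower in 6 of the 15 alternatives: by DESeq2, and by edgeR with upper-quartile scaling, with the stricter filter, with the replicate block, without Control replicate 1 and without Control replicate 2. Ndufv2, an iron-sulfur subunit of the N module, had 167 and 167 CPM in the FK866 libraries, against 191 and 218 CPM in the Control libraries (log2 fold change -0.29 ± 0.131 (SE), edgeR adjusted p = 0.184), and it was called without Control replicate 1 and with the replicate block.

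Ndufv1, which binds NADH and the flavin, had 244 and 227 CPM in the FK866 libraries, against 279 and 238 CPM in the Control libraries. Control replicate 2 lay within the spread of the FK866 pair, so the groups overlapped (log2 fold change -0.14 ± 0.135 (SE), edgeR adjusted p = 0.574). Ndufs1, the largest subunit of the matrix arm, had 151 and 152 CPM in the FK866 libraries, against 159.8 and 164 CPM in the Control libraries (log2 fold change -0.094 ± 0.125 (SE), edgeR adjusted p = 0.692). The iron-sulfur subunit Ndufs8 had 188 and 181 CPM in the FK866 libraries, against 221 and 206 CPM in the Control libraries (log2 fold change -0.21 ± 0.125 (SE), edgeR adjusted p = 0.321).

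Ndufs3, of the Q module, had 136 and 135 CPM in the FK866 libraries, against 149 and 148 CPM in the Control libraries (log2 fold change -0.13 ± 0.125 (SE), edgeR adjusted p = 0.555). Its FK866 libraries both lay below its Control libraries.

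Beside 0 of 7 core subunits in the same fit, 10 of the 30 tested accessory genes (Ndufa4 among them) were called lower, a pair of shares whose difference was not tested. They were spread over the modules: 5 of 10 in the distal membrane arm, 2 of 5 accessory subunits of the N module and 3 of 14 others. Over all genes tested 7.89% were called lower. Among protein-coding genes with a median coding transcript length under 600 nt the share was 18.7%, and from 600 to 1000 nt it was 15.6%. Per kilobase of principal transcript, core subunits had a median of 129.6 CPM per kb in FK866 libraries and 142 CPM per kb in Control libraries. For distal membrane arm genes the medians were 95.9 CPM per kb in FK866 libraries and 123 CPM per kb in Control libraries.

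The distal end of the membrane arm, built around the mitochondrially encoded ND4 and ND5, held Ndufb4 and Ndufb3, the subunits with the lowest fold changes. Ndufb4 (ENSMUSG00000022820, chromosome 16, 37647170 to 37654453, minus strand, here and below on GRCm38) had 28.8 and 31.1 CPM in the FK866 libraries, against 55.6 and 65.4 CPM in the Control libraries. Each FK866 library was at about the same low level and both Control libraries were well above them (log2 fold change -1.01 ± 0.163 (SE), edgeR adjusted p = 0.0068). Ndufb3 (ENSMUSG00000026032, chromosome 1, 58586384 to 58595964, plus strand), a single-span membrane subunit, had 41.5 and 43.1 CPM in the FK866 libraries, against 75.7 and 84.9 CPM in the Control libraries (log2 fold change -0.93 ± 0.146 (SE), edgeR adjusted p = 0.00651). Ndufb7, which faces the intermembrane space, had 127 and 126 CPM in the FK866 libraries, against 215 and 212 CPM in the Control libraries (log2 fold change -0.76 ± 0.125 (SE), edgeR adjusted p = 0.00752). In all 3 genes both FK866 libraries lay below both Control libraries, which 29.3% of all genes tested also showed. The Control libraries were further apart in Ndufb4 (SD 6.89 CPM) and Ndufb3 (SD 6.54 CPM) than in Ndufb7 (SD 2.40 CPM).

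Ndufb6 had 54.9 and 56.2 CPM in the FK866 libraries, against 88.8 and 84.1 CPM in the Control libraries (log2 fold change -0.64 ± 0.138 (SE), edgeR adjusted p = 0.0196), with 39.0% of its exon bases in exons of Smim27 on the other strand, whose reads cannot be told apart without strand. Ndufb10, another subunit of the intermembrane space side, had 84.6 and 89.8 CPM in the FK866 libraries, against 116 and 133 CPM in the Control libraries. It was the called member nearest to the threshold (log2 fold change -0.51 ± 0.138 (SE), edgeR adjusted p = 0.0444) and was called only when Control replicate 1 was the library left out, not when any of the other 3 was. At the other end of the range in this group, Ndufb5 had 112 and 112 CPM in the FK866 libraries, against 104 and 115 CPM in the Control libraries. Ndufb2 had 8.75 and 8.15 CPM in the FK866 libraries, against 7.71 and 8.01 CPM in the Control libraries. Neither passed the test (edgeR adjusted p = 0.909 for Ndufb5 and 0.846 for Ndufb2), and Ndufb5 overlapped between groups. Per kilobase of principal transcript, Ndufb2 was the lowest of the subunits tested, at 1.93 CPM per kb in FK866 libraries and 1.80 CPM per kb in Control libraries. The subunit medians were 119 and 151 CPM per kb, and the reason for its low level was not tested.

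Of the other accessory subunits, Ndufc1, a small subunit of the membrane arm, had 31.9 and 39.7 CPM in the FK866 libraries, against 52.7 and 75.3 CPM in the Control libraries. The Control libraries were far apart, but both lay above the FK866 libraries (log2 fold change -0.84 ± 0.206 (SE), edgeR adjusted p = 0.031), and the log2 fold change was -0.56 without Control replicate 2. Ndufa5, of the Q module, had 61.3 and 51.1 CPM in the FK866 libraries, against 91.6 and 105 CPM in the Control libraries (log2 fold change -0.81 ± 0.157 (SE), edgeR adjusted p = 0.0131). Ndufa11, a membrane arm subunit near the contact with complex III in the respirasome, had 59.8 and 59.6 CPM in the FK866 libraries, against 91.1 and 96.5 CPM in the Control libraries (log2 fold change -0.65 ± 0.136 (SE), edgeR adjusted p = 0.0176).

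In the N module, Ndufv3 had 58.7 and 58.5 CPM in the FK866 libraries, against 82.7 and 99.4 CPM in the Control libraries (log2 fold change -0.63 ± 0.150 (SE), edgeR adjusted p = 0.027). Ndufs6, which binds zinc, had 80.5 and 77.1 CPM in the FK866 libraries, against 111 and 111 CPM in the Control libraries (log2 fold change -0.50 ± 0.131 (SE), edgeR adjusted p = 0.0402). Both FK866 libraries of each gene were below both Control libraries. The calls of Ndufa5, Ndufa11, Ndufb6, Ndufv3 and Ndufs6 were lost without FK866 replicate 2, and that of Ndufs6 also without FK866 replicate 1.

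The remaining 20 accessory genes were not called, with log2 fold changes from -0.55 (Ndufa3) to 0.10 (Ndufb2), and 6 subunits, Ndufs7 included, had an adjusted p between 0.05 and 0.1. Ndufa1, a short membrane subunit encoded on the X chromosome, had 161 and 168 CPM in the FK866 libraries, against 165 and 183 CPM in the Control libraries and overlapped between the groups (log2 fold change -0.079 ± 0.129 (SE), edgeR adjusted p = 0.76). Ndufa4, the complex IV subunit, had 144 and 147 CPM in the FK866 libraries, against 176 and 215 CPM in the Control libraries (log2 fold change -0.43 ± 0.143 (SE), edgeR adjusted p = 0.086). Ndufa4l2, its hypoxia-inducible relative, was left out by the count filter, with 0 and 4 counts in the FK866 libraries and 0 and 2 counts in the Control libraries. A count of 0 allows up to 0.111 CPM in FK866 replicate 1 and 0.0826 CPM in Control replicate 1 (3 counts per library, counting error only).

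**Figure D2:**
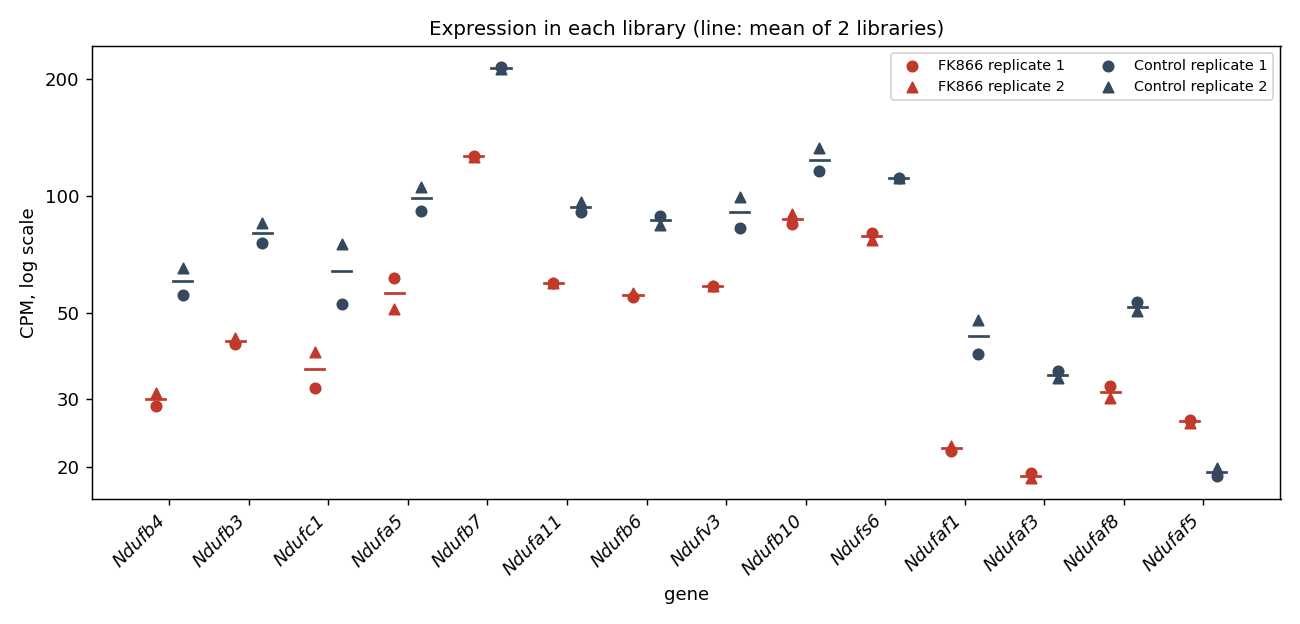
CPM on a log scale (y axis) in each of the 4 libraries for the 13 called members and Ndufaf5 (x axis), with FK866 libraries left of Control libraries, circles for replicate 1, triangles for replicate 2 and a line at the mean. In each of the 13 called genes both FK866 points lie below both Control points, and in Ndufaf5 both lie above.

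Among the assembly factors, Ndufaf1 (ENSMUSG00000027305, chromosome 2, 119655446 to 119662827, minus strand), part of the complex that builds the membrane module around ND2, had 22.1 and 22.6 CPM in the FK866 libraries, against 39.2 and 47.9 CPM in the Control libraries. It averaged 22.4 ± 0.411 CPM in FK866 libraries and 43.6 ± 6.15 CPM in Control libraries (SD, n = 2 each), with the FK866 libraries almost equal (log2 fold change -0.96 ± 0.178 (SE), edgeR adjusted p = 0.011). Ndufaf3, an early factor that works with Ndufaf4 on the Q module, had 19.3 and 18.7 CPM in the FK866 libraries, against 35.4 and 33.9 CPM in the Control libraries (log2 fold change -0.86 ± 0.172 (SE), edgeR adjusted p = 0.0146). Ndufaf8, known from human cells as the partner that stabilises NDUFAF5, had 32.4 and 30.1 CPM in the FK866 libraries, against 53.3 and 50.5 CPM in the Control libraries (log2 fold change -0.73 ± 0.156 (SE), edgeR adjusted p = 0.0188). These 3 were the called assembly factors, and the calls of Ndufaf3 and Ndufaf8 were lost without FK866 replicate 2.

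Ndufaf5 (ENSMUSG00000027384, chromosome 2, 140170649 to 140203689, plus strand), the enzyme that hydroxylates an arginine of NDUFS7, was the assembly factor with a positive fold change. It had 26.5 and 26.0 CPM in the FK866 libraries, against 19.0 and 19.9 CPM in the Control libraries. Both FK866 libraries were above both Control libraries, which 28.4% of all genes tested also showed, but the gene did not pass (log2 fold change 0.43 ± 0.180 (SE), edgeR adjusted p = 0.157). It was called higher in 4 of the 15 alternatives. These were the stricter count filter (edgeR adjusted p = 0.0478), where 17.5% of all genes tested were called higher, and 3 fits with a length trend removed, described below. Those 3 used principal transcript lengths (4.72% of all genes), merged exon lengths (4.67%), and the median coding length with a replicate block (10.7%). Over the 15 alternatives its edgeR or DESeq2 adjusted p ran from 0.0127 to 0.608.

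The other 4 factors were not called. Ndufaf2, a late factor that occupies the place of Ndufa12, had 7.34 and 5.65 CPM in the FK866 libraries, against 8.59 and 13.9 CPM in the Control libraries. Its Control libraries were far apart and it had the fewest counts of the 8 (log2 fold change -0.79 ± 0.309 (SE), edgeR adjusted p = 0.131), with 65.7% of its exon bases in exons of a gene on the other strand. Ndufaf7, an arginine methyltransferase of the matrix, had 32.1 and 38.8 CPM in the FK866 libraries, against 48.8 and 49.4 CPM in the Control libraries (log2 fold change -0.47 ± 0.165 (SE), edgeR adjusted p = 0.0981).

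Ndufaf4 had 68.9 and 63.4 CPM in the FK866 libraries, against 69.3 and 85.8 CPM in the Control libraries (log2 fold change -0.23 ± 0.157 (SE), edgeR adjusted p = 0.392), the FK866 and Control replicate 1 libraries lying side by side. Ndufaf6, a factor needed for the ND1 part of the membrane arm, had 30.9 and 27.3 CPM in the FK866 libraries, against 32.8 and 32.9 CPM in the Control libraries (log2 fold change -0.18 ± 0.169 (SE), edgeR adjusted p = 0.562). Without Control replicate 1, Ndufaf2, Ndufaf4 and Ndufaf7 were called lower as well.

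Promoters are shown for members at both ends of the range: Ndufaf1, Ndufaf8 and Ndufb7, which fell and hold one of the searched motifs close to the start site, Ndufaf5, which had the highest fold change, and Ndufb4, which had the lowest. RefSeq windows on GRCm38.p6, from 250 bases before to 50 bases after a start site, were at hand for 40 of the 46 members (42 windows) and were searched on both strands for the palindromic NRF1 consensus, whose letters are the capitals in the Ndufaf5 window, for CCGGAAG (ETS factors such as GABPA) and for AAGATGGC (YY1), factors known from mouse and human cells to bind promoters of respiratory genes. Capitals mark the matches, which do not overlap in these windows, and each sequence runs along the strand of its gene: chr2:119662785-119663084 on the minus strand, chr11:120098684-120098983 on the plus strand, chr2:140170396-140170695 on the plus strand, chr8:83566508-83566807 on the plus strand and chr16:37654319-37654618 on the minus strand.
Ndufaf1: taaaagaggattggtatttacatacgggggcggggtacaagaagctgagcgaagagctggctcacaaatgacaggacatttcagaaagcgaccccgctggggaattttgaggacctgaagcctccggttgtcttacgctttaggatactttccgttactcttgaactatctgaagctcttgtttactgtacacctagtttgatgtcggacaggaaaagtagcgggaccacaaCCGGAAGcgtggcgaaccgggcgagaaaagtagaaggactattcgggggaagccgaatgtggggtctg
Ndufaf8: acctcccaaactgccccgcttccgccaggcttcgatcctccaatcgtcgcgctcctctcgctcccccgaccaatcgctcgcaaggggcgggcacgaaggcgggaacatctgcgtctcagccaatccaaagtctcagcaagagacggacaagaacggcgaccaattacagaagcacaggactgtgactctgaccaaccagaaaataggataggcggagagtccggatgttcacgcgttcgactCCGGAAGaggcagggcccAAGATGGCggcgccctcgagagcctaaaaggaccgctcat
Ndufaf5: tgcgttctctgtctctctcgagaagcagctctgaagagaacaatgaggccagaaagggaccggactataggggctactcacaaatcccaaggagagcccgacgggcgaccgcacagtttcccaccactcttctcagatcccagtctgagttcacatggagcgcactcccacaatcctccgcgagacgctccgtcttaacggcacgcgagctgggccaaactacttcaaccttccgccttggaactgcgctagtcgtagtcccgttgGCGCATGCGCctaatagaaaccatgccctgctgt
Ndufb7: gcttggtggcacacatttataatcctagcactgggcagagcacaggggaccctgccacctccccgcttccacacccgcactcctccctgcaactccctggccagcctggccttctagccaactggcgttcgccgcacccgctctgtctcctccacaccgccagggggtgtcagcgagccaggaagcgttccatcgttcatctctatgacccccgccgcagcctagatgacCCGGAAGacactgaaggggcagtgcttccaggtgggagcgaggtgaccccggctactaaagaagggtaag
Ndufb4: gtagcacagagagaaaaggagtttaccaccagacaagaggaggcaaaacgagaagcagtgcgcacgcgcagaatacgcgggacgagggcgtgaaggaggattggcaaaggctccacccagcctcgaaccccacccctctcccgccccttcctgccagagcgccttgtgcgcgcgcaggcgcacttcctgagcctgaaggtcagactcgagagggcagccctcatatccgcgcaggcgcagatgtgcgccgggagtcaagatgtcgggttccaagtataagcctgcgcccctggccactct
In Ndufaf1 the ETS letters begin 18 bases before the start site, in Ndufb7 20 bases before it, and in Ndufaf8 8 bases before it, followed by the YY1 letters. The NRF1 letters of Ndufaf5 begin 16 bases past the start site. The window of Ndufb4 holds none of the 3 motifs.

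Over the members, the YY1 letters were in 8 of 42 windows, among them Ndufc1, Ndufs6 and Ndufs7, against 2.75% of all 32851 windows. All 8 matches lay on the strand of the gene, from 10 (Ndufaf8) to 38 (Ndufb8) bases past the start site. The letters contain ATG, and whether they overlap the start codon was not tested. The ETS letters were in 6 of 42 windows of members (8.86% of all) and the NRF1 letters in 3 of 42 (0.971% of all), those of Ndufaf4, Ndufaf5 and Ndufa11. Windows of members called lower held the ETS letters in 4 of 14 cases and those of other members in 2 of 28. For YY1 these counts were 3 of 14 and 5 of 28. These are matches of letters, with no test made of the shares. Of the genes of the factors themselves, Nrf1 had 87.6 and 79.7 CPM in the FK866 libraries, against 98.9 and 75.4 CPM in the Control libraries (log2 -0.059), and Gabpa and Yy1 had log2 fold changes of -0.15 and 0.38; none of these 3 passed the test (edgeR adjusted p = 0.872, 0.589 and 0.23).

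Transcript length was examined because fold changes rose with it across the transcriptome. By the median length of its protein-coding transcripts, a subunit gene measured 704 nt in the median (382 to 2413 nt) and an assembly factor 1124 nt, against 2278 nt for all 14428 protein-coding genes tested. In all, 30 of 37 subunits and 3 of 8 assembly factors were shorter than 1000 nt, and all 10 called subunits were among those 30. Spearman's rho between length and log2 fold change was 0.24 across the 14428 genes and 0.34 across the 37 subunits, given as a description since genes of the same libraries are not independent. After removal of the trend described below the values were 0.052 and 0.39. That trend was fitted on this same length, so the fall to 0.052 follows from the fit. By principal transcript length, rho went from 0.28 to 0.14 across the 14428 genes and from 0.43 to 0.48 across the subunits. By merged exon length it went from 0.27 to 0.16 and from 0.37 to 0.39.

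Set beside all protein-coding genes of like length, the members were lower in the 3 shortest of 5 bins of the median coding length. Among genes under 600 nt, 13 subunits had a median log2 fold change of -0.43 and 4 were called lower, against a median of -0.19 and 18.7% called lower over all 497 genes of the bin. From 600 to 1000 nt, 17 subunits had a median of -0.38 with 6 called lower, and 2 assembly factors, both called lower, a median of -0.80, against -0.21 and 15.6% over 1889 genes. From 1000 to 2000 nt, 6 subunits had a median of -0.19 with 0 calls and 4 assembly factors a median of -0.32 with 1 call, against -0.13 and 13.4% over 3827 genes. The single subunit and the single assembly factor of 2000 to 4000 nt, Ndufb2 and Ndufaf4, were at 0.10 and -0.23, against a median of 0.092.

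The bins by principal transcript gave a different picture for the subunits. Under 600 nt, 7 subunits had a median of -0.39, against -0.37 over all genes of the bin. From 600 to 1000 nt, 15 subunits had a median of -0.47 with 7 called lower, against -0.33 and 19.9%. From 1000 to 2000 nt, 11 subunits had a median of -0.24 with 1 called lower, against -0.25 and 16.3%, and 5 assembly factors a median of -0.47 with 2 called. From 2000 to 4000 nt, 3 subunits had a median of -0.21 with 0 calls, against -0.0026. The subunit medians were thus below those of all genes from 600 to 1000 and from 2000 to 4000 nt, and close to them in the bins under 600 nt and from 1000 to 2000 nt. By merged exons, the 2 subunits under 600 nt had a median of -0.20, above the -0.33 of all genes. The 7 from 600 to 1000 nt had a median of -0.47, against -0.33, and the 14 from 1000 to 2000 nt a median of -0.46, against -0.34. The 9 from 2000 to 4000 nt were at -0.24, against -0.15, and the 5 over 4000 nt at -0.094, against 0.15.

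**Figure D3:**
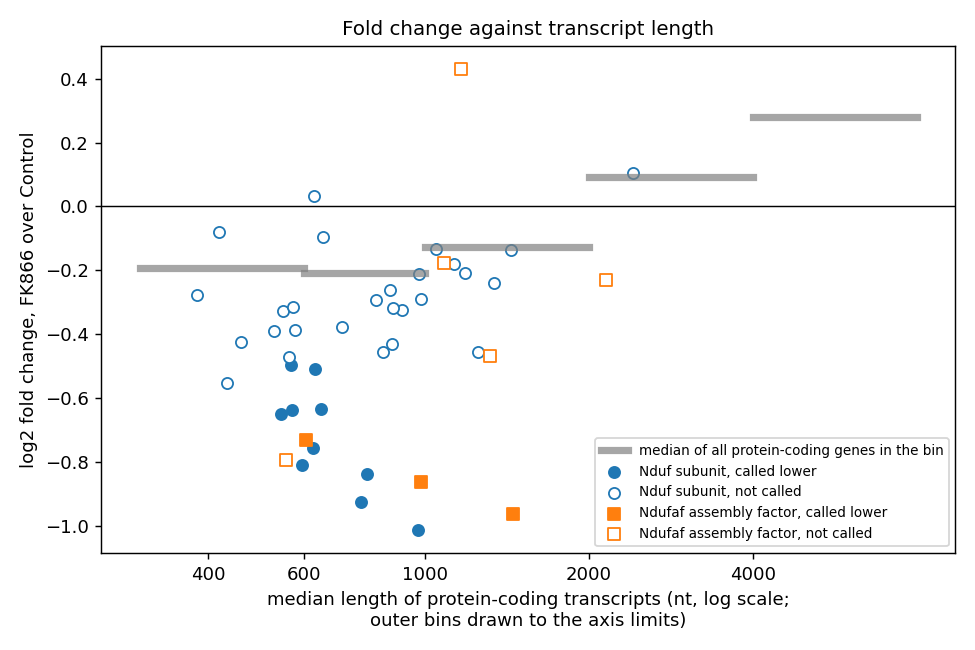
Log2 fold change (FK866 over Control, y axis) against the median length of protein-coding transcripts (x axis, log scale) for 37 subunits (circles) and 8 assembly factors (squares), filled where called lower, with grey lines at the median of all protein-coding genes tested in each of 5 length bins. Most points under 1000 nt lie below the grey lines, which stand at -0.19 and -0.21 there and rise to 0.28 over 4000 nt.

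With a smooth trend on transcript length taken out of each library, the median over the subunits became -0.22 and that over the assembly factors -0.46. In that fit 7.13% of all genes tested were called lower, and 5 of 37 subunits and 3 of 8 assembly factors were. The subunits still called were Ndufb4 (-0.85, edgeR adjusted p = 0.0113), Ndufb3 (-0.76), Ndufb7 (-0.61), Ndufa5 (-0.66) and Ndufa11 (-0.52), and the assembly factors were Ndufaf1 (-0.84, edgeR adjusted p = 0.017), Ndufaf3 (-0.70) and Ndufaf8 (-0.59). The calls of Ndufc1, Ndufb6, Ndufv3, Ndufb10 and Ndufs6 were lost, at log2 fold changes from -0.67 to -0.36. Among the core subunits, Ndufs1 and Ndufs3 were then above 0 (0.058 and 0.026).

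How length is defined mattered. Several of these genes have short, incomplete coding transcripts beside the full one: for Ndufs1 the median over 7 coding transcripts is 651 nt and its principal transcript (APPRIS) 2661 nt. With the principal length in place of the median, a choice made after seeing the data, 2 subunits (Ndufb4 and Ndufb3) and 2 assembly factors (Ndufaf1 and Ndufaf3) were called lower, where 6.46% of all genes tested were, and Ndufaf5 was called higher, with 4.72% of all genes (log2 0.70, edgeR adjusted p = 0.0382). The medians became -0.10 for subunits and -0.36 for assembly factors. Ndufb4, Ndufb3 and Ndufaf1 were called lower under each of the 15 alternatives run.

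**Figure D4:**
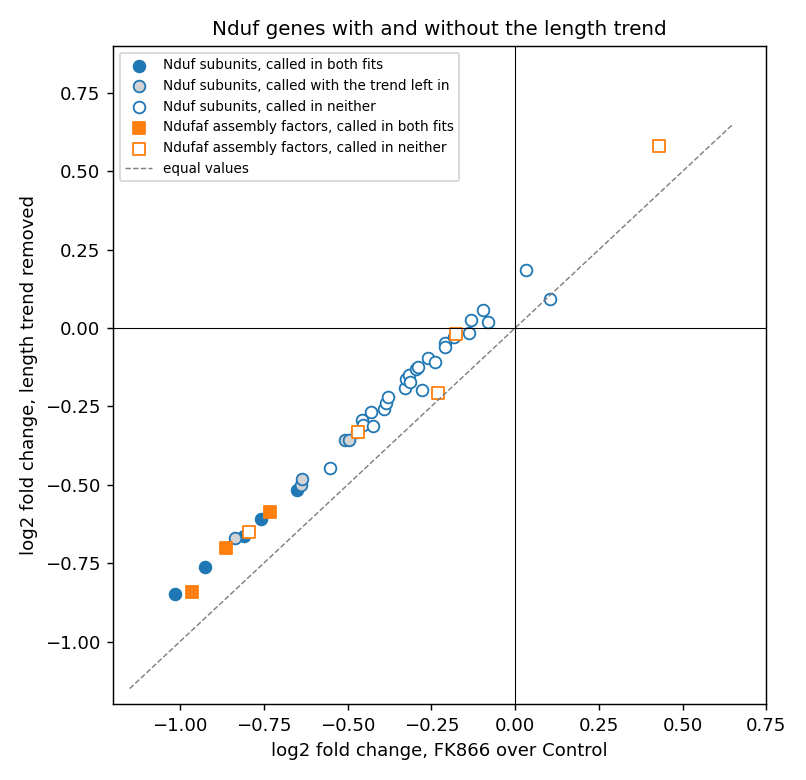
Log2 fold change with the length trend removed (y axis) against the value with the trend left in (x axis) for the 37 subunits (circles) and 8 assembly factors (squares), both as FK866 over Control, with a dashed line at equal values. Every point but that of Ndufb2 lies above the line, the 3 squares and 5 circles filled in colour mark the genes called lower in both fits, and grey ones those called only with the trend left in.

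Other genes of complex I were read from lists of known factors. Of 10 further assembly factors measured, 3 were called lower and 0 higher, against 7.89% and 5.31% of all genes tested. Their median log2 fold change was -0.59. With the length trend removed it was -0.53, and 2 were called lower, against 7.13% of all genes tested. Dmac1 was then no longer called (edgeR adjusted p = 0.0567). Foxred1, an oxidoreductase-like assembly factor, had 30.7 and 27.6 CPM in the FK866 libraries, against 54.0 and 46.2 CPM in the Control libraries (log2 fold change -0.78 ± 0.168 (SE), edgeR adjusted p = 0.0193). Tmem70 (-0.63), which also serves ATP synthase, and Dmac1 (-0.88), a factor of the distal membrane arm, fell too. Of the partners of Ndufaf1 in its complex, Tmem126b was at -0.54 and Acad9 at -0.33, and neither was called. Ecsit, another partner, averaged 81.5 ± 8.46 CPM in FK866 libraries and 81.5 ± 2.99 CPM in Control libraries (SD, n = 2 each) and was not called.

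The 7 mitochondrially encoded subunits gave 0 calls among 6 tested, by edgeR, by DESeq2 or at an unadjusted p under 0.05, with a median log2 fold change of -0.26. Their sum was 1843 and 1952 CPM in the FK866 libraries, against 1685 and 3096 CPM in the Control libraries, so that both FK866 libraries lay between the Control libraries. mt-Nd1 had 808 and 903 CPM in the FK866 libraries, against 838 and 1553 CPM in the Control libraries. mt-Nd2 had 381 and 365 CPM in the FK866 libraries, against 295 and 614 CPM in the Control libraries. In both the Control libraries were further apart than the group means were.

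For comparison, the 38 nuclear subunits of complexes II to V had a median log2 fold change of -0.37. Of them 8 were called lower and 0 higher, against 7.89% and 5.31% of all genes tested. With the length trend removed their median was -0.23 and 5 were called lower, against 7.13% of all genes tested. The smallest adjusted p-values were those of Uqcr11 (-0.67), Atp5j (-0.72), Atp5k (-0.94) and Cox7a2 (-0.71), small subunits of complexes III, V, V and IV. Of 29 tested assembly factors of complexes II to V, 8 were called lower and 1 higher, beside the same shares of all genes. Their median was -0.27. With the length trend removed it was -0.22, with 5 called lower and 1 higher, against 7.13% and 4.88% of all genes tested. Cox17, a copper chaperone for complex IV, rose (log2 fold change 1.58 ± 0.277 (SE), edgeR adjusted p = 0.00905), while the assembly factors Surf1 (-0.93), Sdhaf1 (-1.17) and Coa3 (-0.71) fell. Complex I medians were not tested against these.

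Of 12 regulators of respiratory genes, 2 were called lower and 0 higher, against 7.89% and 5.31% of all genes tested. With the length trend removed, 1 of them, Tfb2m, was called lower, against 7.13% of all genes tested, and Esrra was not (edgeR adjusted p = 0.0691). Tfb2m, a mitochondrial transcription factor, had 21.2 and 18.9 CPM in the FK866 libraries, against 30.9 and 38.8 CPM in the Control libraries (log2 fold change -0.80 ± 0.192 (SE), edgeR adjusted p = 0.0293), and Esrra, a nuclear receptor of oxidative metabolism, had 9.53 and 6.65 CPM in the FK866 libraries, against 19.0 and 14.3 CPM in the Control libraries (log2 fold change -1.04 ± 0.269 (SE), edgeR adjusted p = 0.0366). The noncoding locus Ndufb1-ps, which lies at the RefSeq Ndufb1 gene and is no member by its GENCODE biotype, had 31.4 and 28.8 CPM in the FK866 libraries, against 41.5 and 60.5 CPM in the Control libraries (log2 fold change -0.76 ± 0.204 (SE), edgeR adjusted p = 0.0424); with the length trend removed its adjusted p was 0.0801. The processed pseudogenes Ndufab1-ps, Ndufs6b, Ndufb4c and Ndufa11b had at most 1.60 CPM in any library, so few reads were assigned to these copies.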

How the data were processed

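The deposited counts are whole numbers of reads for each Ensembl gene in 4 libraries, with totals that differ between libraries as raw counts do, and were used as they stand. Per the labels' protocols, RNA was taken with TRIzol and full-length cDNA made with the SMART-Seq HT kit, which does not mark strand, and libraries with Nextera XT. The submitters' processing notes name HISAT2 2.2.1, cutadapt 1.9 and the mm10 build. Neither the counting program nor its annotation and handling of multi-mapping reads is stated in what was used here.

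Symbols, biotypes, lengths and positions came from GENCODE M21 (GRCm38, mm10), which matched 55227 of the 55487 gene IDs. Counts were tested with edgeR 4.0.16 (quasi-likelihood F test, two-sided, TMM scaling, treatment as the only term, R 4.3.3) on the whole table after filterByExpr (minimum count 10, minimum total 15), which kept 19194 genes. Calls were made at an adjusted p (Benjamini-Hochberg, over these genes) below 0.05. CPM used TMM-scaled library sizes, and SEs were back-calculated as the absolute fold change (log2) over the root of the F statistic. The length trend was a spline with 5 degrees of freedom on log2 length, fitted per library to the log2 CPM deviations of coding genes whose mean log2 CPM exceeded 2, and entered as offsets. Fits were tested on simulated data. Library pairs of a group differed by more than sampling noise (chi-square per degree of freedom 19.0 for FK866, 35.8 for Control) and counted as separate samples. Counts of tested members ran from 192 to 10154 in a library. Counting error was not compared with the spread of 2 libraries gene by gene. Some pairs lay very close together, such as Ndufs6 in Control libraries (SD 0.0131 CPM). DESeq2 1.42.0 served as an alternative.

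The members, lists and tests were chosen with earlier results of these data known. Named in full are the called members, all Ndufaf genes, the core subunits, the 3 members at each end of the range and those whose call changes with length; 1 member is not reported here by itself and enters only counts and summaries.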

Additional observations from a re-analysis of the deposited data

How the results depend on the processing

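Each group had 2 libraries, and each tested member had at least 192 counts in a library. How far depth and the spread between libraries limit these calls was not tested. The number of subunits called lower was 10 and ran from 4 to 25 as each library was left out, and that of assembly factors was 3 and ran from 1 to 6. The median fold change of subunits ran from -0.51 to -0.29 and that of assembly factors from -0.68 to -0.43. Scaling by library totals or upper quartile, DESeq2 and the filters kept the subunit count between 8 and 13, with 3 assembly factors lower; the cause of the differences was not tested. Over all genes, the main fit called 1514 lower and 1020 higher (7.89% and 5.31% of 19194 tested). The stricter filter called 1643 lower and 1808 higher (15.9% and 17.5% of 10345 tested). DESeq2 gave 1903 lower and 1490 higher (15.2% and 11.9% of 12496 genes). With no filter the calls were 1502 and 849 (3.31% and 1.87% of 45373 genes). Scaling by library totals gave 1461 and 1323 (7.61% and 6.89% of 19194 genes). The median of all genes was 0.24 with no filter and 0.19 without Control replicate 2. With the length trend removed, 5 subunits were called lower, with medians of -0.22 for subunits and -0.46 for assembly factors. With length and GC removed, 7 subunits were called lower (8.41% of all genes) and these medians were -0.21 and -0.45. With lengths of principal transcripts, 2 subunits were called lower and 1 assembly factor higher, with medians of -0.10 and -0.36. With merged exons, 3 subunits and 1 assembly factor were called lower (6.37% of all genes) and 1 assembly factor higher (4.67%), with medians of -0.13 and -0.39. The principal and merged lengths were chosen after seeing the data. The stricter filter called 1 assembly factor, Ndufaf5, higher, with a median of -0.50 for assembly factors. Leaving Ndufa4 and Ndufa4l2 out moved the subunit median to -0.35.

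The replicate numbers are shared between groups by number only. Same-numbered libraries deviated together (correlation 0.31 over 19194 genes), which with 2 pairs does not establish pairing. With a replicate block, 24 subunits and 5 assembly factors were called lower, with 15.9% of all genes tested lower. With the block and the length trend removed, 12 subunits and 3 assembly factors were lower (14.3% of all genes) and 1 assembly factor higher (10.7%), with medians of -0.22 and -0.46.

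Sign changes came in members that were not called under either setting. With the length trend removed, Ndufa1 was at 0.018, Ndufs1 at 0.058 and Ndufs3 at 0.026, and with the block as well at 0.018, 0.058 and 0.026. With length and GC removed, Ndufs1 was at 0.020, Ndufs3 at 0.021 and Ndufv1 at 0.0040. With principal lengths, Ndufa1 was at 0.22, Ndufa2 at 0.0026, Ndufa6 at 0.044, Ndufa8 at 0.046, Ndufaf6 at 0.11, Ndufb2 at -0.012, Ndufs3 at 0.16, Ndufs8 at 0.082 and Ndufv1 at 0.047. With merged exons, Ndufa1 was at 0.27, Ndufa2 at 0.039, Ndufa8 at 0.081, Ndufaf6 at 0.14, Ndufb11 at 0.016, Ndufs3 at 0.090, Ndufs8 at 0.10 and Ndufv1 at 0.035. With the stricter filter, Ndufa1 was at 0.016 and Ndufs1 at 0.00075. With no filter, Ndufb5 was at -0.011. As each library was left out, Ndufb5 ran from -0.14 to 0.11 and Ndufb2 from -0.043 to 0.18. In all, 32 of 45 members kept their sign under all 15 alternatives.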
